A study of Mus musculus with 21 samples.

Results

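Nrf2 is a transcription factor that switches on genes which protect cells from oxidants and reactive chemicals. In resting cells the adaptor Keap1 holds Nrf2 and passes it to a ubiquitin ligase for destruction. When reactive compounds modify Keap1, Nrf2 accumulates, pairs with a small Maf protein and binds antioxidant response elements next to its target genes. Their products make and recycle glutathione, reduce quinones and thioredoxin, and degrade heme. The 10 genes described here are well-known targets of this factor together with its own gene, and they were listed by name among 55414 gene identifiers in the deposited table. All 10 passed the filter on low counts.

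The data were bulk RNA-seq counts of Paneth cells, the secretory cells at the base of small intestinal crypts, sorted by FACS from mice. For 7 weeks the drinking water was either Milli-Q, that is, purified, or supplemented with zinc sulfate (ZnSO4, given in the labels as 200 mM). The 3 contexts were specific pathogen free mice (SPF), SPF mice depleted of microbes by a broad-spectrum antibiotic treatment over the final 3 weeks, and germ-free mice. The SPF groups held 3 libraries on each water, the antibiotics groups 4 on each water, and the germ-free groups 3 on Milli-Q and 4 on zinc water, all described as biological replicates. The study names C57BL/6J mice as its usual source of sorted Paneth cells. The labels give no strain, allele, age or sex. The comparisons asked whether zinc changed the antioxidant genes and in which microbiome context.

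The 5 windows below hold the core letters of an antioxidant response element, TGACNNNGC, in front of members that were higher on zinc water after antibiotics. They are shown because this is the element that Nrf2 recognises. The search covered both strands of the 1000 bases before the start of the transcript that GENCODE marks as canonical, in the GRCm39 assembly. Capitals mark the 9 letters of the core or of its reverse complement, and the sequences are written 5′ to 3′ on the plus strand.
Gclm, chr3:122039056-122039096, 54 bases before the start, intron of the unnamed gene ENSMUSG00000132270: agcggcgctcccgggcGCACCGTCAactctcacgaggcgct
Gsr, chr8:34142506-34142546, 744 bases before the start, intergenic: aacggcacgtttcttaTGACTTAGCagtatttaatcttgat
Gsr, chr8:34142734-34142774, 516 bases before the start, intron of Gsr: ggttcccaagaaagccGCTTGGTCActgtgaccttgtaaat
Txnrd1, chr10:82694626-82694666, 371 bases before the start, exon of Gm38560: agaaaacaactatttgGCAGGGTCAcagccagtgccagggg
Txnrd1, chr10:82694932-82694972, 65 bases before the start, exon of Gm38560: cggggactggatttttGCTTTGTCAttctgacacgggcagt

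These letters were present in this window for 5 of the 10 genes (Gclm, Gsr, Txnrd1, Slc7a11 and Nfe2l2), against 28.2% of 21770 protein-coding genes. They were absent for Nqo1, Cbr3 and Gclc, which were also higher on zinc water after antibiotics, and for Hmox1 and Srxn1. No match overlapped the letters of an AP-1 site, TGANTCA, which 3 members and 24.1% of genes held. The core of the metal response element, TGCACNC or TGCGCNC, occurred for 7 members (Nqo1, Cbr3, Gclc, Gclm, Hmox1, Srxn1 and Slc7a11) and in 50% of genes. In front of Gclm such a core, 58 bases before the start, shares letters with the antioxidant core shown above. A match of letters is a description of the sequence and does not show binding.

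The libraries held 9888174 to 16896714 counts, with a median of 12936001. The 28 Defa genes, which encode the antimicrobial α-defensins of Paneth cells, took 24.1 to 44.5% of counts, so the sorted cells carried the label's markers. Levels are given as CPM, the counts of a gene relative to a library size that was scaled by TMM factors, which correct for genes that take a large share of a library. Stromal markers summed to at most 2.87 CPM in any library. SPF zinc replicate 1 stood apart with 507 CPM of Xist, the RNA that silences an X chromosome, while no other library exceeded 2.53 CPM. In bulk libraries, a lower count from fewer cells of a type and from less RNA per cell cannot be told apart.

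Per kilobase of transcript, the members covered a wide range of abundance. In SPF mice on Milli-Q water the mean level per kilobase was 28.6 CPM for Txnrd1, the cytosolic thioredoxin reductase, 15.96 for Gsr, glutathione reductase, and 13.99 for Nfe2l2, which encodes Nrf2. Gclc, the catalytic subunit of glutamate-cysteine ligase, followed at 8.70 CPM per kilobase. Its modifier subunit Gclm (3.00), the peroxiredoxin repair enzyme Srxn1 (2.15), the quinone reductase Nqo1 (2.12) and the carbonyl reductase Cbr3 (1.496) formed a lower tier on this per-length scale. The mean of Cbr3 rested on replicate 2 with 5.97 CPM, against 0.545 CPM in replicate 1 and 0.435 CPM in replicate 3. Hmox1, heme oxygenase 1 (0.346), and Slc7a11, the cystine/glutamate exchanger (0.148), had the lowest values per kilobase. Over all libraries their raw counts were 3 to 32 for Hmox1 and 2 to 83 for Slc7a11, and this depth limits what can be said of both. The same limit applies to Cbr3 on Milli-Q water, with 6 to 23 counts after antibiotics and 0 to 3 in germ-free mice.

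**Figure D1:**
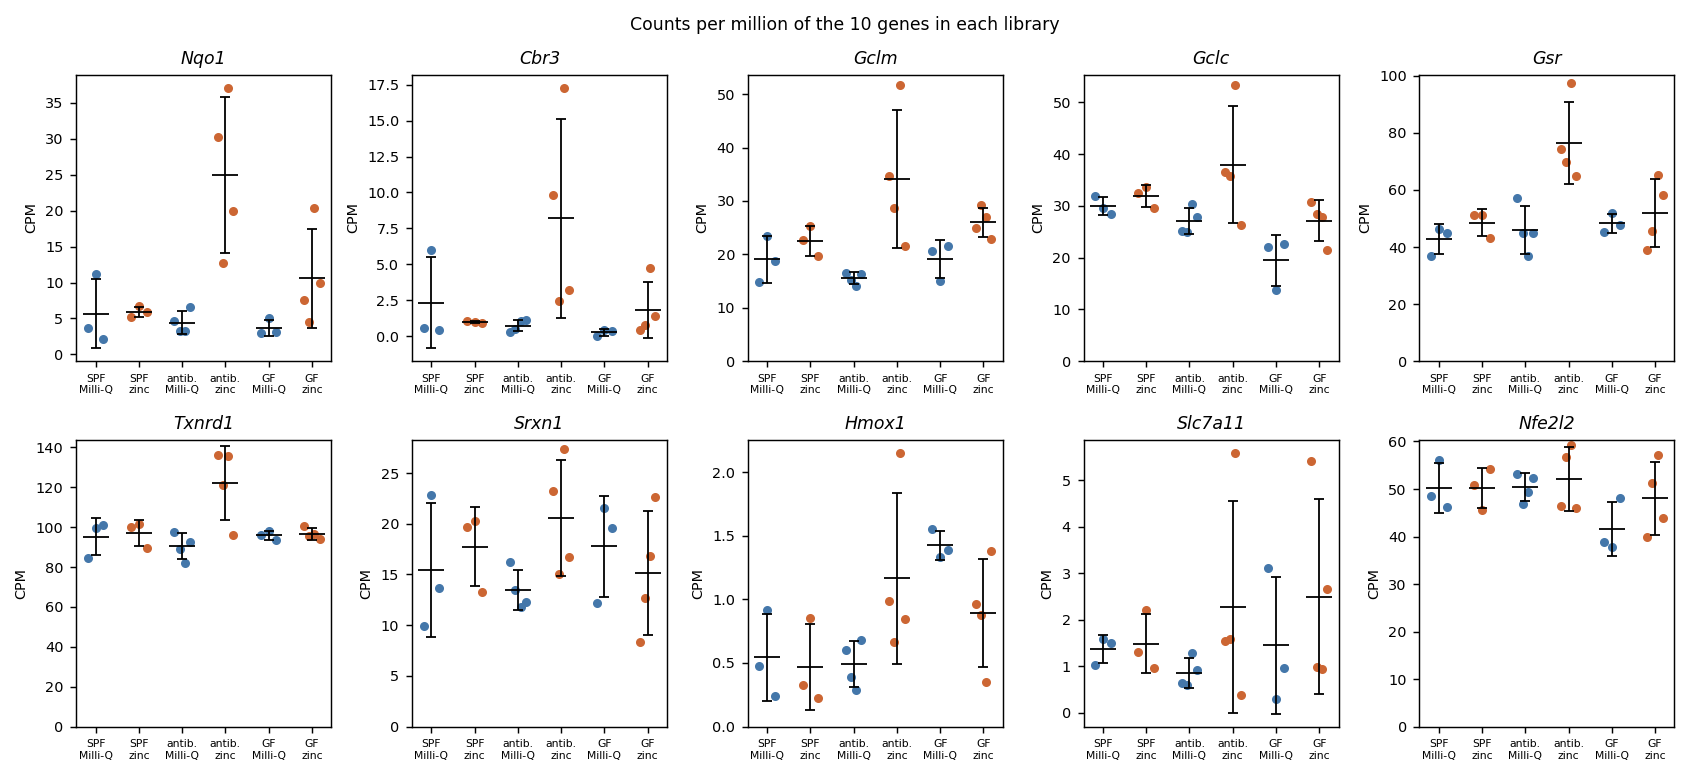
Level of each of the 10 genes in every library (TMM-scaled CPM, linear axis), by context and water, with each point a library (blue Milli-Q, orange zinc), the long line at the group mean and bars of 1 SD. In the antibiotics groups the zinc libraries of Nqo1, Cbr3, Gclm and Gsr lie above every Milli-Q library, as do those of 13.9% of all genes tested, and SPF Milli-Q replicate 2 is the high point for Cbr3 at 5.97 CPM.

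After antibiotics, 6 of the 10 genes were higher on zinc than on Milli-Q water, and none was lower. They act in quinone and carbonyl reduction (Nqo1, Cbr3), in glutathione synthesis (Gclm, Gclc) and recycling (Gsr), and in the reduction of thioredoxin (Txnrd1). Of 13070 genes tested with edgeR's quasi-likelihood test, 21.7% were called in this comparison and 10.2% were called higher, at a Benjamini-Hochberg adjusted threshold of 0.05. The 10 log2 fold changes were all positive, with a median of 0.94 against 0.01 over all genes tested. The members were chosen with earlier results of these data known, so this contrast is no independent test. For 4 of the 10 the lowest zinc library exceeded the highest Milli-Q library, as it did for 13.9% of the genes tested.

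Nqo1 reduces quinones by transferring electrons in pairs, which avoids reactive semiquinones. Its level in the 4 Milli-Q libraries after antibiotics was 4.65, 3.28, 3.26 and 6.56 CPM, and in the 4 zinc libraries 30.3, 12.6, 37.1 and 19.9 CPM. The lowest zinc library lay above the highest Milli-Q library, and the group means were 4.44 ± 1.56 and 25.0 ± 10.8 CPM (SD, n = 4 each). The log2 fold change was 2.48 ± 0.43 (SE, edgeR adjusted p = 0.00131).

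Cbr3 reduces carbonyl groups of drugs and endogenous compounds. After antibiotics it was nearly silent on Milli-Q water, at 0.300, 0.459, 1.06 and 1.12 CPM. On zinc water its 4 libraries held 9.84, 2.47, 17.3 and 3.20 CPM. All zinc libraries again lay above all Milli-Q libraries, although relative to their mean they varied more than those of any other called member, with a coefficient of variation of 84.3%. The log2 fold change of 3.44 ± 0.76 was the largest of the 10 (edgeR adjusted p = 0.00409).

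Both subunits of glutamate-cysteine ligase, which carries out the rate-limiting step of glutathione synthesis, were higher. Gclm rose from 16.5, 15.2, 14.1 and 16.2 CPM on Milli-Q water to 34.6, 28.7, 51.8 and 21.6 CPM on zinc water. Here the groups did not overlap, and the log2 fold change was 1.14 ± 0.19 (edgeR adjusted p = 0.0013). Gclc rose from 25.2, 25.0, 30.4 and 27.9 CPM to 36.5, 35.7, 53.4 and 26.4 CPM. Zinc replicate 4 of Gclc fell within the Milli-Q range, and the log2 fold change was 0.48 ± 0.17 (edgeR adjusted p = 0.0428). The Gclc call was close to the threshold. It held in 13 of 21 fits that left out a library, and was lost without any of the 4 Milli-Q replicates, zinc replicates 1 or 3 of the antibiotics group, or SPF zinc replicates 1 or 3, with its lowest value without antibiotics zinc replicate 3 (0.28, adjusted p = 0.201).

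Gsr and Txnrd1 use NADPH to keep glutathione and thioredoxin reduced. Gsr was at 57.0, 44.8, 36.9 and 45.0 CPM on Milli-Q water after antibiotics and at 74.3, 69.6, 97.4 and 65.0 CPM on zinc water. The groups did not overlap, with a log2 fold change of 0.74 ± 0.16 (edgeR adjusted p = 0.00331). Txnrd1 was at 97.8, 89.1, 82.1 and 92.8 CPM on Milli-Q water and at 136.0, 121.0, 135.6 and 96.2 CPM on zinc water. Only zinc replicate 4 overlapped the Milli-Q libraries of Txnrd1, and the log2 fold change was 0.43 ± 0.11 (edgeR adjusted p = 0.00963).

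The other 4 genes did not pass the test after antibiotics. Srxn1, which reactivates overoxidised peroxiredoxins, had a log2 fold change of 0.61 ± 0.26 (edgeR adjusted p = 0.0931). It passed with limma-voom (adjusted p = 0.0385), with no filter on low counts (adjusted p = 0.00537) and in an edgeR fit of only these groups (adjusted p = 0.0188). The 2 scarce transcripts had larger but imprecise values, 1.21 ± 0.50 for Hmox1 (adjusted p = 0.0839) and 1.37 ± 0.63 for Slc7a11 (adjusted p = 0.119). Slc7a11 passed only with no filter (adjusted p = 0.0152). Without zinc replicate 3 the values fell to 0.76 for Hmox1 (adjusted p = 0.312) and 0.44 for Slc7a11 (adjusted p = 0.640). Nfe2l2 itself differed by 0.05 (95% interval -0.21 to 0.30), with 46.9 to 53.2 CPM on Milli-Q and 46.1 to 59.2 CPM on zinc water.

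The 4 zinc libraries after antibiotics were not alike. Replicate 3 held the highest value for 9 of the 10 genes and replicate 4 the lowest for 6. Without replicate 3, 5 genes were still called, with log2 fold changes of 2.24 for Nqo1, 2.79 for Cbr3 and 0.87 for Gclm. With scaling by library totals alone, Nqo1, Cbr3 and Gclm were called and Gsr, Gclc and Txnrd1 were not. Immune markers also moved between these groups, with a summed level of 253 to 297 CPM in the Milli-Q libraries and 10.6 to 197 CPM in the zinc libraries. Nearly all of this was Cd74 (243 to 283 against 2.56 to 189 CPM), the T cell marker Cd3e was at most 0.194 CPM in these groups, and 0 of 4 tested immune markers of 8 were called by edgeR. Their part in the result was not tested. Enterocyte markers, from the absorptive cells, summed to 391 to 429 CPM on Milli-Q and 446 to 640 CPM on zinc water, with 1 of 10 called higher. Of 8 stem and cycling cell markers 3 were called higher and 1 lower, with a sum of 3145 to 4027 CPM on Milli-Q and 3036 to 4322 CPM on zinc water. Of 8 enteroendocrine markers 1 was higher, and none of the goblet or tuft markers tested was called by edgeR. The part of these markers in the result was not tested.

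In SPF mice no member was called on zinc water, by edgeR or any other tool run. None of the 10 had an unadjusted p under 0.05, and the median log2 fold change was 0.07 against -0.02 over all genes. Few genes were called at all in this comparison, 18 of 13070 or 0.138%, with 665 at an unadjusted p under 0.05. The intervals were wide for the genes that responded most after antibiotics.

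Nqo1 was at 3.68, 11.1 and 2.17 CPM in the SPF Milli-Q libraries and at 5.21, 6.68 and 5.88 CPM on zinc water. The zinc libraries lay between the Milli-Q libraries, and the log2 fold change was 0.06 (95% interval -0.97 to 1.09). Cbr3 was at 0.545, 5.97 and 0.435 CPM on Milli-Q water and at 1.06, 0.995 and 0.892 CPM on zinc water, with a log2 fold change of -1.25 (95% interval -3.07 to 0.57). Gclm was at 14.9, 23.5 and 18.7 CPM on Milli-Q and at 22.7, 25.3 and 19.6 CPM on zinc water (log2 fold change 0.24, 95% interval -0.22 to 0.70). For each of these genes SPF Milli-Q replicate 2 was the highest of its group, as it was for 8 of the 10 members.

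The SPF values depended on single libraries, that one most of all. Without it the log2 fold changes became 1.04 for Nqo1, 1.01 for Cbr3, 0.42 for Gclm and 0.59 for Srxn1. All 10 were then positive, with a median of 0.33, but none was called (edgeR adjusted p = 0.997 for each of these 4). SPF Milli-Q replicate 2 was the highest of its group for 8 of the 10, so leaving it out raises most zinc estimates by construction. Other omissions moved the values the other way. Nqo1 became -0.32 without Milli-Q replicate 3 and -0.15 without Milli-Q replicate 1, Cbr3 became -1.73 without Milli-Q replicate 3, and Hmox1 moved from -0.21 to -0.97 without zinc replicate 2. SPF Milli-Q replicate 2 also had the lowest share of Defa counts, 24.1%. The part of this difference in the result was not tested. Enterocyte markers summed to 479 to 687 CPM on Milli-Q and to 1023 to 1800 CPM on zinc water in SPF mice. Of these markers 1 of 10 was called higher, and all 10 were positive with a median log2 fold change of 2.09. Their part in the result was not tested. Leaving out SPF zinc replicate 1, which stood apart for Xist, left 0 members called.

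**Figure D2:**
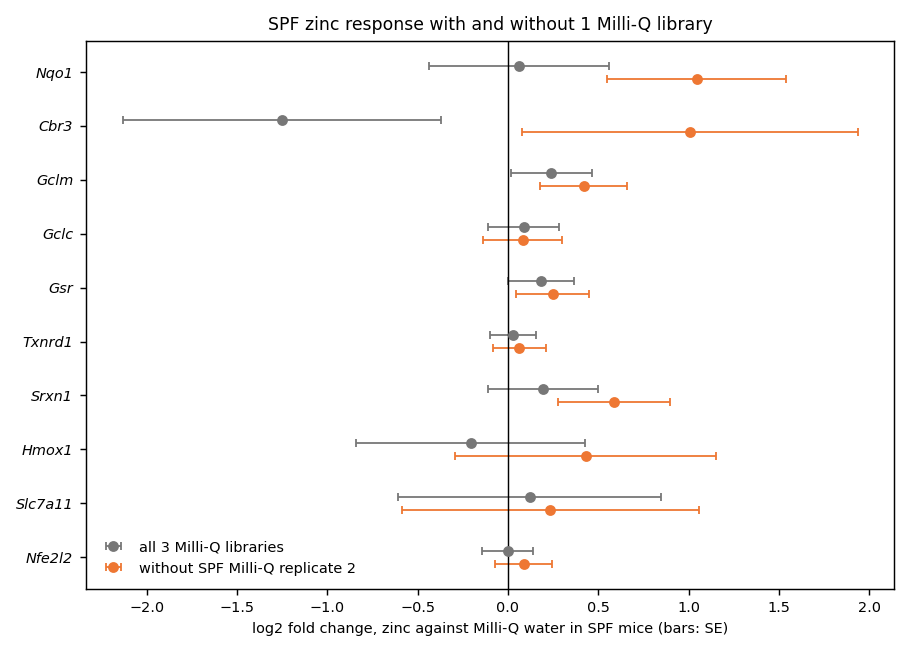
Log2 fold change of each gene on zinc against Milli-Q water in SPF mice, with all 3 Milli-Q libraries (grey) and without replicate 2 (orange), with bars of 1 SE. Cbr3 moves from -1.25 to 1.01 and Nqo1 from 0.06 to 1.04, while Gclc, Gsr, Txnrd1 and Nfe2l2 move little.

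In germ-free mice no member passed the adjusted threshold on zinc water in edgeR's test, in which 1483 genes (11.3%) were called. Nqo1, Gclc and Cbr3 had an unadjusted p under 0.05, and the median log2 fold change of the 10 was 0.33 against -0.02 over all genes. Nqo1 was at 2.98, 5.03 and 3.10 CPM on Milli-Q water and at 7.55, 4.48, 20.4 and 9.88 CPM on zinc water. Of the 4 zinc libraries 3 lay above all Milli-Q libraries, and the log2 fold change was 1.54 ± 0.53 (edgeR adjusted p = 0.0596).

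Cbr3 had 0, 0.444 and 0.321 CPM in the germ-free Milli-Q libraries, which are counts of 0, 3 and 3. Its zinc libraries held 0.387, 0.765, 4.72 and 1.38 CPM, and the log2 fold change of 2.85 ± 1.23 did not pass (edgeR adjusted p = 0.124). Both Nqo1 and Cbr3 were highest in zinc replicate 3, without which their values were 0.99 (adjusted p = 0.256) and 1.80 (adjusted p = 0.428). DESeq2 placed Nqo1 past the threshold (1.53, adjusted p = 0.0445), as did edgeR without SPF Milli-Q replicate 2 (1.55, adjusted p = 0.0288). The same held when SPF Milli-Q replicate 3 was omitted, and when replicate 2 or 4 of the germ-free zinc group was. Omitting that replicate 4 also brought Gclc past the threshold.

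Gclm was at 20.7, 15.1 and 21.5 CPM on germ-free Milli-Q water and at 25.0, 29.3, 27.0 and 22.9 CPM on zinc water. All 4 zinc libraries lay above the 3 Milli-Q libraries, yet the log2 fold change of 0.44 ± 0.22 did not pass (edgeR adjusted p = 0.186). It was the only member of the 10 without overlap in this comparison, where 5.74% of all genes tested had every zinc library above every Milli-Q library. Gclc differed by 0.46 ± 0.20 (adjusted p = 0.118). Txnrd1 was nearly level, at 93.7 to 98.1 CPM on Milli-Q and 93.9 to 101 CPM on zinc water, with a log2 fold change of 0.01 (95% interval -0.24 to 0.26). Gsr differed by 0.11 (95% interval -0.25 to 0.47), and Hmox1 (-0.67) and Srxn1 (-0.21) were the 2 members with negative values.

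The germ-free count of called genes ran from 5 without Milli-Q replicate 2 to 3436 without zinc replicate 4, so calls of single members depended on the libraries included. An edgeR fit of only the germ-free groups called 3 genes, and limma-voom called 3157. Enterocyte markers summed to 522 to 1144 CPM on Milli-Q and 589 to 2054 CPM on zinc water in these mice, with 2 of 10 called higher, and their part in the result was not tested.

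Averaged over the 3 contexts, 5 members were higher on zinc water and none lower, where edgeR called 21.9% of all genes and 10.7% higher. These were Nqo1 (log2 fold change 1.36 ± 0.28), Cbr3 (1.68 ± 0.57), Gclm (0.61 ± 0.12), Gclc (0.35 ± 0.11) and Gsr (0.34 ± 0.10), with edgeR adjusted p from 0.00298 to 0.0366. Txnrd1, called after antibiotics, did not pass in the average (0.16, adjusted p = 0.106). The average contains the antibiotics libraries and is no separate evidence of their response. The call of Cbr3 held in 9 of 21 fits that left out a library and fell short in the other 12, and Gclc fell short without germ-free Milli-Q replicate 2 (0.28). In the same average 5 of 10 enterocyte markers were called higher, 3 of 8 goblet markers lower, and 3 of 8 stem and cycling markers higher and 1 lower, and their part in the result was not tested.

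**Figure D3:**
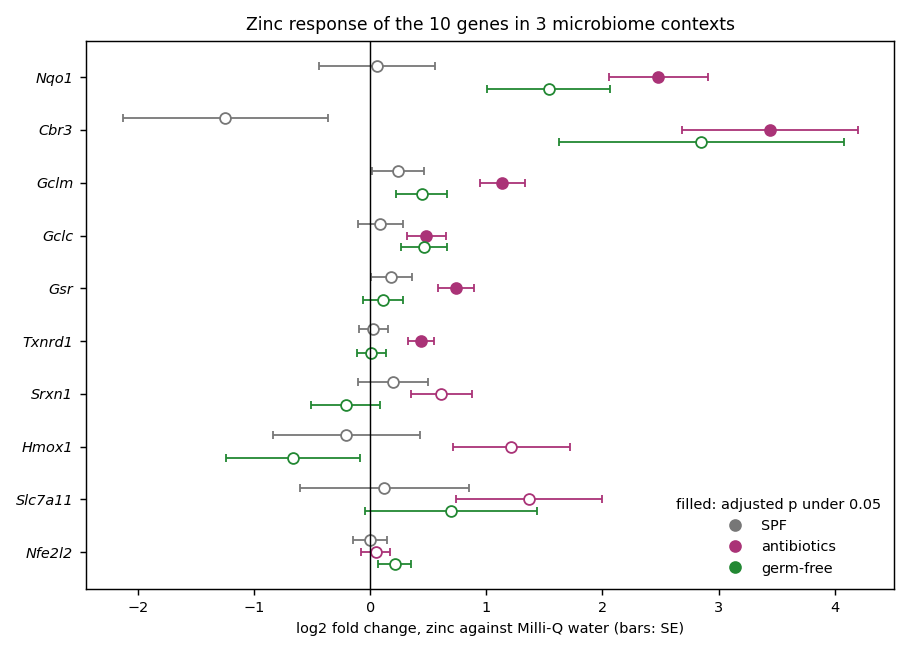
Log2 fold change on zinc against Milli-Q water for each gene in SPF, antibiotics and germ-free mice, with bars of 1 SE, filled points for calls at an adjusted threshold of 0.05 and a vertical line at 0. The 6 filled points are all in the antibiotics context, with Cbr3 at 3.44 and Nqo1 at 2.48.

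A call in one context and not in another does not show that the contexts differ, so the difference of the zinc effects was tested. Between antibiotics and SPF mice, 0 of 13070 genes (0.0%) were called by edgeR and 2418 had an unadjusted p under 0.05. Among the members none was called and 5 had an unadjusted p under 0.05, and all 10 differences were positive. Cbr3 differed most, by 4.69 ± 1.16 on the log2 scale (edgeR adjusted p = 0.107), followed by Nqo1 with 2.42 ± 0.65 (edgeR adjusted p = 0.114) and Gclm with 0.90 ± 0.30 (edgeR adjusted p = 0.137). Without SPF Milli-Q replicate 2 these differences were 2.44, 1.44 and 0.72, with adjusted p from 0.309 to 0.347, and without germ-free zinc replicate 4 Cbr3 passed (4.69). DESeq2 called 260 genes in all and 1 member in this comparison, limma-voom 473 and no member, and an edgeR fit of only these groups 249 with 2 members, Cbr3 and Nqo1.

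Between germ-free and SPF mice, edgeR again called 0 of 13070 genes (0.0%) for a difference of the zinc effect, with 1740 at an unadjusted p under 0.05. Cbr3 was the only member with an unadjusted p under 0.05 (4.10 ± 1.52, adjusted p = 0.275), and the difference for Nqo1 was 1.48 ± 0.73 (adjusted p = 0.384). Without SPF Milli-Q replicate 2 these fell to 1.86 (adjusted p = 0.651) and 0.51 (adjusted p = 0.806). DESeq2 called 34 genes and limma-voom 354, in each case with no member. Between germ-free and antibiotics mice 27 genes (0.207%) and no member were called by edgeR, and 5 members had an unadjusted p under 0.05. In this comparison 9 of 10 values were negative, that is, the zinc effect was estimated lower in germ-free mice. Gsr had the lowest adjusted p (-0.62 ± 0.23, 0.182) and was called by limma-voom alone, at -0.73. The comparisons share libraries, so these 3 sets of differences are not independent.

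The contexts were also compared on the same water. On Milli-Q water, antibiotics and SPF mice differed in 26 genes (0.199%) by edgeR and in no member, with none of the 10 at an unadjusted p under 0.05. The value furthest from 0 was that of Cbr3 (-1.65 ± 0.80, adjusted p = 0.618), and it turned to 0.60 without SPF Milli-Q replicate 2. On zinc water, where edgeR called 8.97% of genes and 4.76% higher, 3 members were higher after antibiotics than in SPF mice. These were Nqo1 (2.07 ± 0.47, adjusted p = 0.0105), Cbr3 (3.05 ± 0.85, adjusted p = 0.0295) and Gsr (0.66 ± 0.17, adjusted p = 0.0206).

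For these 3 genes every antibiotics zinc library lay above every SPF zinc library, which held for 14.6% of all genes tested. The SPF zinc libraries held 51.2, 51.2 and 43.1 CPM of Gsr, 0.892 to 1.06 CPM of Cbr3 and 5.21 to 6.68 CPM of Nqo1. SPF Milli-Q replicate 2 is in neither of these groups. Nqo1 was called in all 21 fits that left out a library, Gsr in 18 and Cbr3 in 16. Gsr fell short without antibiotics zinc replicate 3 (0.52) or SPF zinc replicates 2 or 3, and Cbr3 without antibiotics zinc replicates 1 or 3 or any SPF zinc replicate. Of the enterocyte markers 8 of 10 were called lower after antibiotics than in SPF mice on zinc water. Of 8 goblet markers 4 were called higher, with a median log2 fold change of 0.99 over the 8, and 1 of 8 enteroendocrine markers was higher. The part of these markers in the result was not tested.

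Between germ-free and SPF mice on Milli-Q water, 24.3% of genes were called by edgeR and 11.6% were lower, and 1 member, Gclc, was lower in germ-free mice. Gclc was at 31.9, 29.7 and 28.4 CPM in SPF and at 22.1, 13.8 and 22.6 CPM in germ-free mice, without overlap (-0.61 ± 0.20, edgeR adjusted p = 0.0307), as for 18.8% of all genes tested in this direction. Gclc was no longer called when germ-free Milli-Q replicate 2 (-0.42) or SPF Milli-Q replicate 1 (-0.60) was omitted. Hmox1 was higher in every germ-free Milli-Q library (1.55, 1.33 and 1.39 CPM) than in every SPF Milli-Q library (0.477, 0.918 and 0.242 CPM), but on 9 to 13 counts against 5 to 18 it did not pass (1.37 ± 0.60, adjusted p = 0.0995), and 19.3% of all genes tested lay without overlap in this direction. Cbr3 differed by -3.17 ± 1.20 (adjusted p = 0.0565), and by -0.95 without SPF Milli-Q replicate 2. All 6 Paneth markers were called higher in germ-free mice on Milli-Q water. Of 8 enteroendocrine markers 4 were lower and 1 higher, and of 8 stem and cycling markers 4 were lower and 1 higher. Goblet markers had 2 of 8 higher and 2 lower, and enterocyte markers 1 of 10 higher and 1 lower. Of the tested markers, 2 of 5 for tuft and 1 of 4 for immune cells were lower. The part of these markers in the result was not tested. On zinc water 5.85% of genes and no member were called between germ-free and SPF mice by edgeR, and no member had an unadjusted p under 0.05.

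Against antibiotics mice on Milli-Q water, germ-free mice differed in 22.2% of genes and in no member by edgeR, with Hmox1 (1.52 ± 0.56, adjusted p = 0.0544) and Gclc (-0.47 ± 0.19, adjusted p = 0.0812) at an unadjusted p under 0.05. On zinc water 13.2% of genes were called and 6.09% were lower, and 2 members were lower in germ-free mice, Gsr (-0.55 ± 0.16, adjusted p = 0.0227) and Txnrd1 (-0.34 ± 0.11, adjusted p = 0.0464). Nqo1 (-1.23 ± 0.42, adjusted p = 0.053) and Cbr3 (-2.12 ± 0.74, adjusted p = 0.0579) did not pass. Txnrd1 was called in 10 and Gsr in 18 of 21 fits that left out a library, and neither was called without antibiotics zinc replicate 3 or germ-free zinc replicates 1 or 2. In this comparison 5 of 10 enterocyte markers were called higher, 4 of 8 goblet markers lower and 1 higher, 4 of 8 stem and cycling markers lower, 3 of 8 enteroendocrine markers lower and all 6 Paneth markers higher. The part of these markers in the result was not tested. Comparisons with germ-free mice depended on the scaling. Paneth markers summed to 472340 to 850080 scaled CPM in germ-free libraries and to 176230 to 358560 in the others, and scaling by library totals alone lowered the median of all genes by 0.99 between germ-free and SPF mice on Milli-Q water.

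Genes that work with the members were read from 10 lists, which also held the zinc readout. Metallothioneins, which bind zinc, served as that readout. Mt1 was higher on zinc water by 3.75 ± 0.36 (SE) in SPF, 4.00 ± 0.32 in antibiotics and 2.97 ± 0.34 in germ-free mice on the log2 scale, and Mt2 by 5.87 ± 0.50, 5.65 ± 0.42 and 4.39 ± 0.45. All 6 were called by edgeR, with adjusted p of at most 4.71e-05. Both rose in SPF mice, where no member was called. On Milli-Q water germ-free mice exceeded SPF mice by 1.42 ± 0.33 for Mt1 and 1.94 ± 0.44 for Mt2 (edgeR adjusted p = 0.00383 and 0.00305). Mean Mt1 in SPF and germ-free mice was 37.1 and 99.5 CPM on Milli-Q water, and 499 and 778 CPM on zinc water. The smaller germ-free fold changes of Mt1 and Mt2 thus started from a higher baseline. On zinc water no gene of this readout was called between these 2 contexts. Slc30a1, the zinc exporter of the plasma membrane, was also higher on zinc water in antibiotics (1.70) and in germ-free mice (1.26).

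After antibiotics 9 of 13 glutathione S-transferases, which attach glutathione to reactive compounds, were higher on zinc water and none was lower, with a median log2 fold change of 0.82. Of all genes tested, 10.2% were called higher in this comparison. Gsta3 rose by 3.41 ± 0.49 (edgeR adjusted p = 0.000814), from a mean of 1.62 ± 0.348 to 17.3 ± 10.2 CPM (SD, n = 4 each). Gsta4 rose by 2.11 ± 0.48 and Gstm3 by 1.87 ± 0.38. Some members of the same class, such as Gsta1 and Gsta2, are near-identical, and how shared reads were counted is not known, so the values of such genes are uncertain. Gsta1 also averaged under 5 CPM over all libraries. The count was 5 without antibiotics zinc replicate 3 or antibiotics Milli-Q replicate 3, and 4 with library totals alone. In SPF mice 0 of 13 were called by edgeR, where 0.138% of all genes tested were called. Even so, the estimate for Gsta1 in SPF mice (3.40 ± 1.03, edgeR adjusted p = 0.368) was near that after antibiotics (3.58 ± 0.94, edgeR adjusted p = 0.011). In germ-free mice 3 were called higher, against 5.88% of all genes tested, namely Gsta1, Gsta2 and the microsomal Mgst1 (0.78 ± 0.19).

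A list of 6 genes held enzymes that supply NADPH, the electron donor of Gsr, Txnrd1 and Nqo1, and Tkt and Taldo1 of the non-oxidative pentose phosphate branch, which make none. After antibiotics 5 of the 6 were higher, against 10.2% of all genes tested, with a median log2 fold change of 0.53. They were the NADPH suppliers Me1 (2.92), Idh1 (0.75), G6pdx (0.59) and Pgd (0.47), and Tkt (0.37). Me1 was scarce, with a mean of 0.427 ± 0.154 CPM on Milli-Q and 3.26 ± 2.93 CPM on zinc water (SD, n = 4 each). Its zinc libraries after antibiotics ran from 1.13 to 7.41 CPM. Of the list 3 were called without antibiotics zinc replicates 1 or 3 or Milli-Q replicates 2 or 3, and 2 with library totals alone. G6pdx, the entry enzyme of the pentose phosphate pathway, went from 25.6 ± 4.14 to 38.5 ± 5.16 CPM (SD, n = 4 each). None of the 6 was called in SPF or germ-free mice by edgeR, where 0.138% and 11.3% of all genes tested were called.

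Smaller shares of the other lists were called after antibiotics, several of them near the 10.2% of all genes that were called higher. Among 10 thioredoxins and peroxiredoxins 3 were higher (Prdx1 0.75, Prdx3 0.59 and Txn1 0.33), and among 10 further glutathione genes 2 (Gpx2 0.61 and Glrx3 0.56). Quinone, carbonyl and export genes had 2 of 11 tested higher, the aldo-keto reductase Akr1b8 (2.96) and Cbr1 (0.79), and 1 lower, the epoxide hydrolase Ephx1 (-0.50 ± 0.15). Akr1b8 averaged under 5 CPM over all libraries. Of 8 heme and iron genes 1 was higher, Blvra (0.70), and 0 of 3 superoxide dismutases and catalase were called by edgeR. Of the 13 targets of Atf4, the factor of the integrated stress response that also drives Slc7a11, 3 were higher (Psat1 1.39, Asns 0.70 and Cth 0.58).

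The regulators of Nrf2 showed no common direction. After antibiotics the ligase scaffold Cul3 was higher (0.41), while the small Maf genes Mafg (-1.03 ± 0.29, adjusted p = 0.0169) and Mafk (-0.41 ± 0.15, adjusted p = 0.0481) were lower on zinc water. Mafg encodes a binding partner of Nrf2, and its mean fell from 30.1 ± 7.35 to 14.7 ± 3.71 CPM (SD, n = 4 each). Among germ-free libraries Bach1, which encodes a repressor that competes at the same elements, was higher (0.90 ± 0.21, adjusted p = 0.0139) and Keap1 was lower (-0.43 ± 0.13, adjusted p = 0.0387). Keap1 was not called after antibiotics or in SPF mice.

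In germ-free mice on zinc water 3 of 13 Atf4 targets were lower and none higher, against 5.47% of all genes called lower. They were Nupr1 (-1.27 ± 0.21), Atf4 itself (-0.67 ± 0.15) and Shmt2 (-0.57 ± 0.17). The ferritin gene Ftl1 (-0.55) and Ephx1 (-0.58) were lower as well, and catalase was higher (Cat, 0.63 ± 0.16). On Milli-Q water, germ-free mice had 7 of 13 Atf4 targets higher than SPF mice, where 12.7% of all genes were called higher. They were led by Chac1 (3.24 ± 0.66), a glutathione-degrading enzyme, Nupr1 (2.01 ± 0.24) and Asns (1.30 ± 0.17). Slc3a2, the partner chain of Slc7a11, was higher as well (1.14 ± 0.19), whereas Slc7a11 differed by 0.09 (adjusted p = 0.947).

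**Figure D4:**
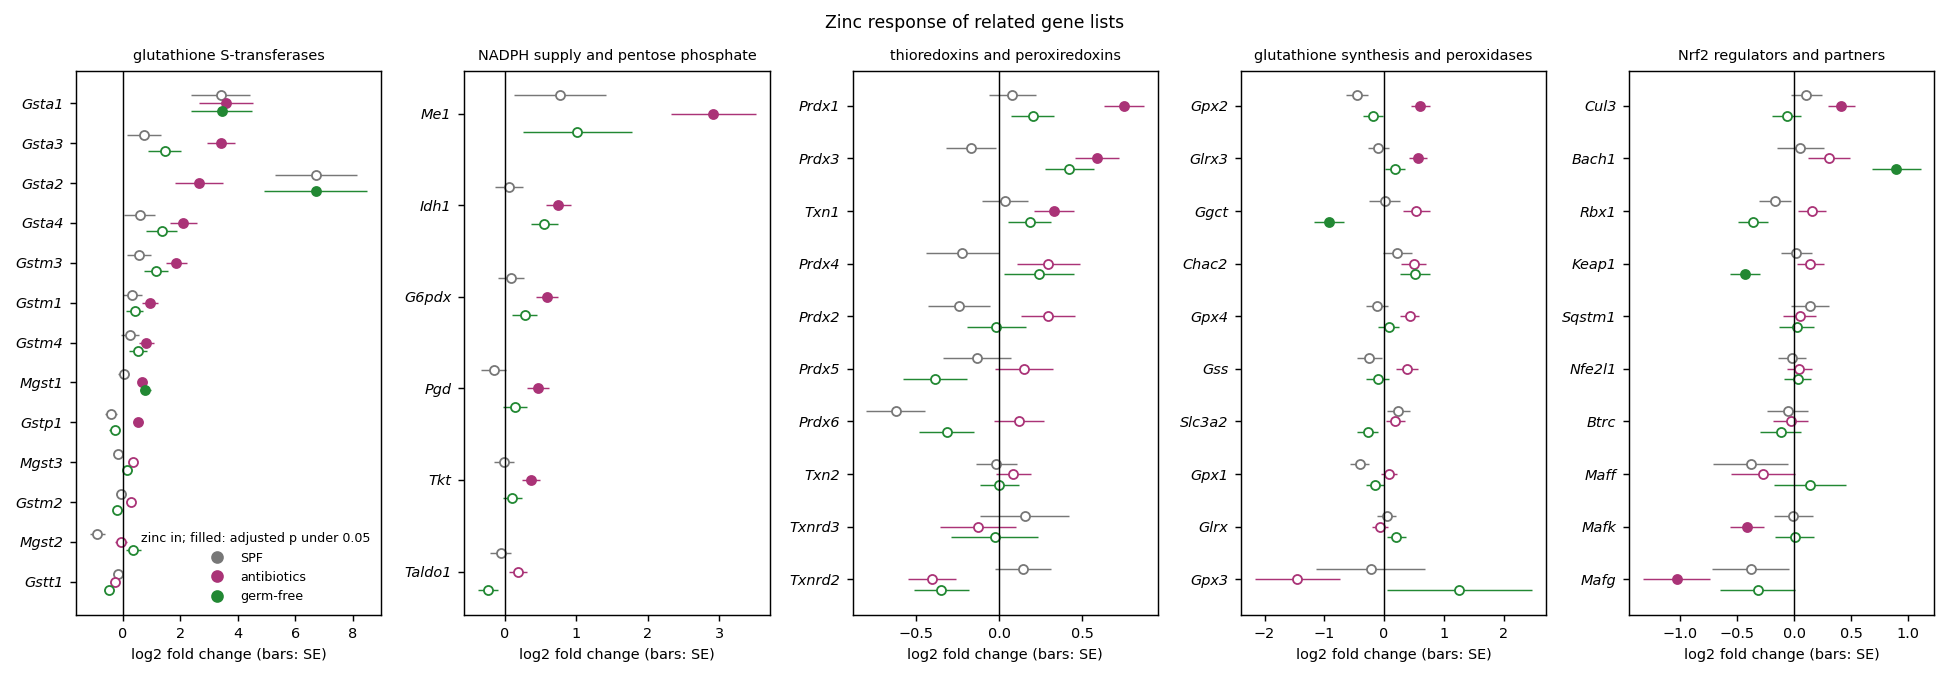
Log2 fold change on zinc against Milli-Q water for the genes of 5 related lists, in SPF (grey), antibiotics (purple) and germ-free mice (green), with bars of 1 SE and filled points for calls at an adjusted threshold of 0.05. After antibiotics 9 of 13 glutathione S-transferases and 5 of 6 genes of NADPH supply and the pentose phosphate pathway are called higher, against 10.2% of all genes tested. In SPF mice none of either list is called, where 0.138% of all genes tested were. The values of Gsta2 rest on a mean of 0.438 CPM over all libraries.

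The following 5 members varied over the 6 group means by at least 1 log2 unit, namely Cbr3 (4.20), Nqo1 (2.63), Hmox1 (1.496), Slc7a11 (1.10) and Gclm (1.06). Nqo1, Cbr3 and Gclm were highest in antibiotics mice on zinc water, Hmox1 in germ-free mice on Milli-Q water and Slc7a11 in germ-free mice on zinc water. For each, the genes with the most similar profile were sought among 9344 others, by the root mean square difference of centred group means on the log2 scale. The closest to Nqo1 were Akr1c14 (0.34) and Ugdh (0.35), and the closest to Cbr3 were Ces1f (0.58) and Scd2 (0.60). The distance is not scaled to the span of a profile, which was largest for Cbr3, so it cannot be compared between members. Gclm was matched by Cenpp (0.07) and Cyp20a1 (0.11), Hmox1 by Tst (0.21) and Denr (0.22), and Slc7a11 by Tm2d1 (0.09) and Frk (0.10). These distances rest on 6 group means and describe likeness of profile only.

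The members lie apart in the genome and none overlaps another member. In GRCm39 Nqo1 spans chr8:108113835-108129934 on the minus strand and Cbr3 chr16:93479726-93487879 on the plus strand, and neither overlaps another annotated gene, nor does Hmox1. The other 7 overlap at least 1 annotated gene. Gclm, at chr3:122039126-122065061 on the plus strand, overlaps 2 genes on the opposite strand, and without the strand setting of the counting the reads of such pairs cannot be told apart. It also overlaps Gm6061 on the same strand, where a strand setting would not separate the reads.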

How the data were processed

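Paneth cells were sorted by FACS, RNA was isolated with a column kit and stranded mRNA libraries were sequenced. The authors deposited raw counts per Ensembl gene for 21 libraries. The submitters' processing notes name FastQC 0.12.0, STAR 2.7.0a, DESeq2 and the build mm39. How the counts were made, whether strand was used and what was done with reads of several matching genes are not given in the sources used here. Symbols, coordinates and transcripts came from GENCODE release 39 (GRCm39).

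Groups were taken from the labels. The members and lists were chosen with earlier results of these data known. The quasi-likelihood test of edgeR 4.0.16 (with limma 3.58.1 in R 4.3.3) was run on the counts in 1 fit over 21 libraries and 6 groups, with TMM factors and 13070 genes kept by filterByExpr (common dispersion 0.0369, prior degrees of freedom 8.52). Within each of 13 comparisons, p-values received Benjamini-Hochberg adjustment, and genes under 0.05 were called. Standard errors are the log2 fold change over the square root of the F statistic. A prior count of 2 entered log-CPM values, and intervals are at 95%. No replicate pair of 27 was a duplicate (chi-square per gene of at least 8.05).

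All members were reported. From the lists, a rule picked up to 6 genes per direction with the largest change among called genes with a mean of at least 5 CPM. Not every pick is named. Picks for the average over contexts and for comparisons with SPF mice on zinc water are among those left out. Other list genes were named after their values were seen. The settings tried beside this one were size factors of the DESeq2 type, library totals, TMM factors leaving out Defa genes, the tests of DESeq2 1.42.0 and of limma-voom (quality-weighted), no filter, a stricter filter (10 counts in 10 libraries), fits of the compared groups alone, a replicate block and omission of each library. Python 3.11.15 with matplotlib 3.10.9 drew the figures.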

Additional observations from a re-analysis of the deposited data

How the results depend on the processing

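Values of single genes were recomputed under 9 other settings and with each of 21 libraries left out. Of 3885 values 3733 stayed on the same side of the threshold and 6 reversed, all with library totals only. These were Gclm (-0.97), Txnrd1 (-0.96) and Gsr (-0.80) between germ-free and SPF mice on Milli-Q water and Gclm (-0.74), Txnrd1 (-0.96) and Gsr (-0.98) between germ-free and antibiotics mice on Milli-Q water. That scaling moved the median of all genes by -0.99, -0.61, -1.05 and -0.74 in the comparisons of germ-free with SPF and with antibiotics mice, on Milli-Q and zinc water. A further 154 changes of sign were among values not called.

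Members called for zinc after antibiotics (6) fell to 3 with library totals only, rose to 8 with no filter (Srxn1 and Slc7a11 added) and were 5 to 6 without single libraries. In SPF mice the count was 0 throughout. In germ-free mice (0) it was 1 with DESeq2, 3 with no filter and 0 to 2 without single libraries. Averaged (5), it was 2 with library totals only and 3 to 6 without single libraries. For antibiotics minus SPF (0) it was 1 with DESeq2, 3 with no filter, 2 with only the groups compared and 0 to 1 without single libraries. For germ-free minus SPF it was 2 with no filter, for germ-free minus antibiotics 1 with limma-voom, and 0 for both without single libraries. Between antibiotics and SPF mice it was 1 with no filter on Milli-Q water, and on zinc water (3) it was 5 with limma-voom and 1 to 5 without single libraries. Between germ-free and SPF mice on Milli-Q water (1) it was 7 with library totals only, 2 with DESeq2, limma-voom or no filter, and 0 to 2 without single libraries. On zinc water (0) it was 3 with library totals only and 1 with no filter. Between germ-free and antibiotics mice on Milli-Q water (0) it was 6 with library totals only, 2 with DESeq2 or limma-voom, 1 with no filter, the stricter filter or only the groups compared, and 0 to 2 without single libraries. On zinc water (2) it was 8 with library totals only, 4 with no filter, 0 with only the groups compared and 0 to 4 without single libraries. The cause was not tested.

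The replicate numbers in the titles did not pair the samples. In the germ-free Milli-Q group the column names of the counts skip a number that the titles do not. The check and the replicate block used the title numbers, so pairing by column number was not tested in germ-free mice. Over 10 pairs the correlation of deviations ran from -0.17 to 0.23, with 3 over 0.1, and 4 of 10 samples correlated best with their own number. With the replicate block the count was 6 for zinc after antibiotics, 1 between germ-free and antibiotics mice on Milli-Q water (Gclc, -0.57) and 1 on zinc water. Counts of all genes called ranged from 1317 to 3477 for zinc after antibiotics and from 5 to 3436 in germ-free mice when single libraries were left out. Depth limits Hmox1 and Slc7a11, with 3 to 32 and 2 to 83 counts. It also limits Cbr3 on Milli-Q water, with 6 to 23 counts after antibiotics and 0 to 3 in germ-free mice.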
